A study of Homo sapiens with 12 samples.

Results

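Irradiated HaCaT keratinocytes, a spontaneously immortalized human skin line, were compared after 42 and after 14 sessions of blue light. The tested libraries were the irradiated pair at 42 sessions (blue_42 a and b), set against the irradiated pair at 14 sessions (blue_14 a and b), so 4 of the 12 libraries of the study entered the comparison directly. The matched unirradiated pairs, dark_42 and dark_14, were set beside them, and libraries at 3 sessions completed the study. Members were taken from the sample titles alone, and all 12878 genes that passed the filter on low counts were examined. Every group was the wild-type HaCaT line grown in serum-containing medium and passaged every few days. The irradiated cells received 50 J per cm2 at 408 nm per session, 3 times a week, from an LED of 4.6 mW per cm2 while in buffered saline. The submitters chose that dose because it killed a large share of the cells. The handling of the dark plates during sessions is not described in the sources used here. The cells at 42 sessions had also spent longer in culture than those at 14, so sessions, culture time and any difference in library preparation cannot be told apart within the irradiated cells.

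Keratinocytes of the basal epidermis divide and adhere to a basement membrane of laminins through integrins. As they differentiate they leave the cycle, switch keratins and cross-link proteins such as involucrin into the cornified envelope. Blue light is absorbed in cells by porphyrins and flavins, which can generate reactive oxygen species. Opsins, among them OPN3, are expressed in skin cells. HaCaT cells carry mutant p53 and keep part of the differentiation programme.

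Transcripts were counted by 3′ tag sequencing, with library totals of 7823533 and 8183941 counts in blue_42 a and b and 3517401 and 2073160 in blue_14 a and b. Levels are given in CPM, a gene's count after scaling every library to the same size. A count of 3 corresponds to 0.383 and 0.367 CPM in blue_42 a and b, and to 0.853 and 1.45 CPM in blue_14 a and b. The libraries of a pair differed by more than counting noise, since chi-square divided by its degrees of freedom was 6.43 in blue_42 and 5.05 in blue_14. The log2 ratio between the libraries of a pair had its highest SD, 0.349, in blue_14, which holds the smallest library. In the other groups the SD was 0.159 to 0.271, with 0.211 in blue_42. The part of library size in this spread was not tested. Mitochondrially encoded transcripts held 15.4% and 13.8% of counts in blue_42 and 15.7% and 14.7% in blue_14. All 11 keratinocyte markers were detected in each library, with sums of 5380 and 5074 CPM in blue_42 and 6681 and 6160 CPM in blue_14, so the markers of the labelled cell type were present. Fibroblast markers summed to 6.90 and 7.09 CPM in blue_42 and 9.67 and 11.1 CPM in blue_14, and melanocyte markers to 12.3 and 12.6 CPM in blue_42 and 10.5 and 15.4 CPM in blue_14. Most of the melanocyte sum was MITF, while MLANA and TYR were at 0 in all 4 libraries. With bulk RNA, fewer cells of a kind and less RNA per cell cannot be told apart.

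Few genes were called between 14 and 42 sessions in irradiated cells. Of 12878 genes, 31 were called at an edgeR adjusted p under 0.05, or 0.241%, with 11 higher (0.0854%) and 20 lower (0.155%) in blue_42. The higher genes held regulators of Wnt signalling and cell shape, a laminin chain, N-cadherin and a D-type cyclin. The lower genes held the envelope precursor involucrin, the collagenase MMP13 and a pair of histone genes. In dark cells over the same interval 907 genes were called, or 7.04%, with 233 higher (1.81%) and 674 lower (5.23%) in dark_42. An unadjusted p under 0.05 was reached by 1608 genes in irradiated cells and by 2810 in dark cells. Both blue_42 libraries lay outside the range of blue_14 for all 31 called genes, as they did for 43% of all tested genes, above it for 21.6% and below it for 21.4%. In the dark such separation held for 49.7% of genes.

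The smaller number of calls in irradiated cells went with a slightly larger error and a narrower spread of changes. Among 8688 genes averaging at least 10 CPM, the median SE of a log2 difference was 0.156 in irradiated cells and 0.144 in dark cells. The SD of the log2 differences over these genes was 0.256 in irradiated and 0.310 in dark cells. At least a 2-fold difference was seen for 35 of them (0.403%) in irradiated cells and for 69 (0.794%) in dark cells. Which libraries were fitted mattered for the count of 31. It was 7 without blue_14 b or without blue_42 a, 9 without blue_42 b, 253 without blue_14 a, and 77 without either of the dark_42 libraries. The calls of SFRP1, BASP1, CALD1 and SPON2 held whichever of the 12 libraries was left out, and each of the other 27 was lost in at least 1 of these fits.

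Most of the 31 genes had the same sign in the dark. The sign of the difference was shared by 27 genes, and SFRP1, CALD1 and CDH2 were among the exceptions. Of the 31, 16 were also called in dark cells in the same direction, 4 higher and 12 lower, which is 51.6% of the calls in irradiated cells and 1.76% of those in dark cells. SFRP1 and CALD1 were called in both with opposite signs, and 13 were not called in dark cells. Seen from the dark side, 193 of the 233 genes called higher in dark_42 (82.8%) lay above 0 in irradiated cells, where 50.5% of all genes did. Their median log2 difference was 0.18 in irradiated and 0.53 in dark cells. Of the 674 genes called lower in dark_42, 584 (86.7%) lay below 0 in irradiated cells, with a median of -0.28 against -0.72 in dark cells. Both sets were picked by their dark calls, which favours large dark values, so these medians do not compare the sizes of the changes. Across the 8688 genes the log2 differences in irradiated and dark cells had a Pearson r of 0.46, a description across genes measured in the same libraries.

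**Figure D1:**
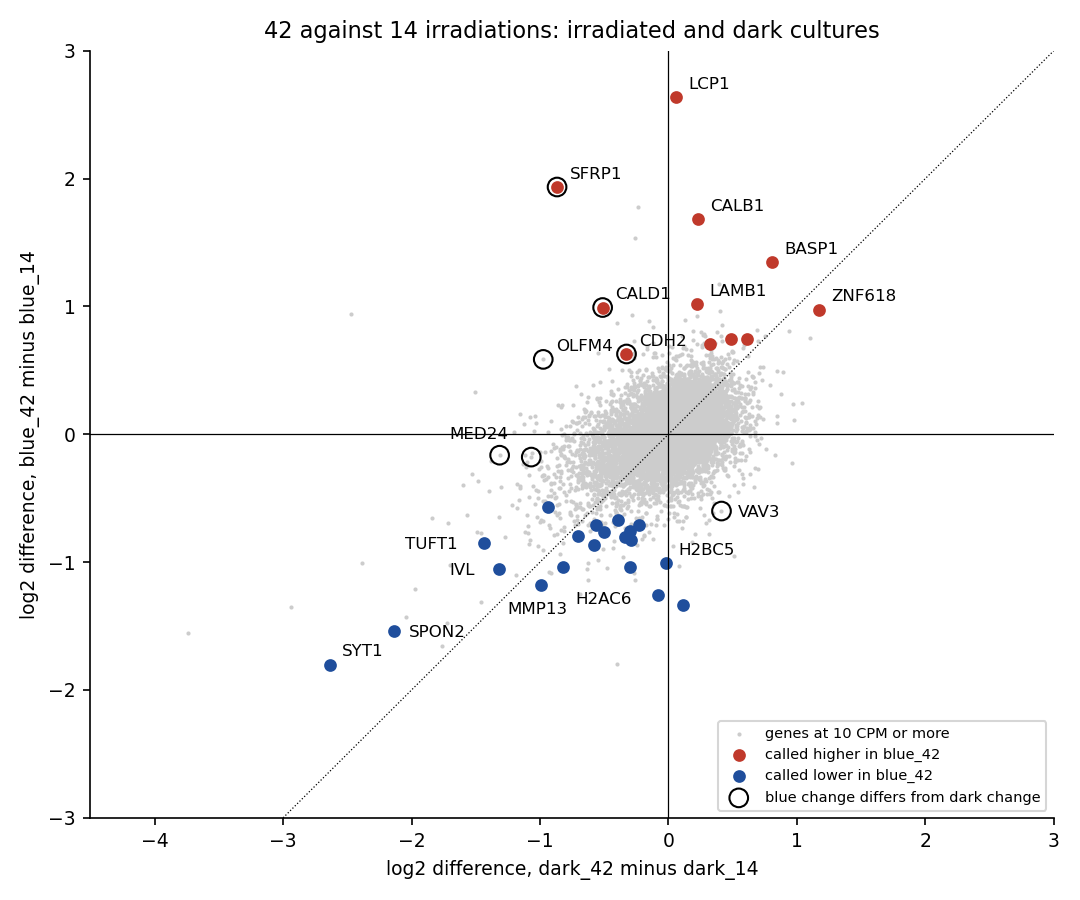
Each grey point is one of 8688 genes averaging at least 10 CPM, placed by its log2 difference in irradiated cells (vertical) and in dark cells (horizontal), and the dotted line marks equal changes. Red and blue points are the 31 genes called in irradiated cells, black rings mark the 7 genes whose change differed between light and dark, and SFRP1, CALD1 and CDH2 stand above 0 in light and below 0 in dark.

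SFRP1, a secreted antagonist that binds Wnt ligands, had the largest rise among called genes above 10 CPM. It stood at 45.1 and 55.6 CPM in blue_42 a and b, against 11.8 and 15.3 CPM in blue_14. In the dark it stood at 3.45 and 3.64 CPM in dark_42, against 5.72 and 6.89 CPM in dark_14. The irradiated pairs were far apart and moved up, while the dark pairs were also apart and moved down. The log2 difference was 1.93 ± 0.19 (SE) in irradiated cells, 3.82-fold higher in blue_42 (edgeR adjusted p = 1.77e-05), and -0.87 ± 0.26 in dark cells (edgeR adjusted p = 0.0452). The difference between these changes was 2.80, with a 95% interval of 2.13 to 3.47 (edgeR adjusted p = 0.000335). At 3 sessions SFRP1 had stood at 22.5 and 24.7 CPM in irradiated cells, so the 14-session level was below that at 3 sessions and the 42-session level above it. SFRP1 was the only gene of 29 tested on a Wnt pathway list to be called, and that list had 10 members above 0 and a median of -0.12.

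CALD1, which encodes the actin-binding protein caldesmon (chr7:134744252-134970728, plus strand), was the other gene called in opposite directions. It stood at 46.4 and 48.0 CPM in blue_42, against 24.7 and 22.4 CPM in blue_14. It stood at 22.5 and 20.3 CPM in dark_42, against 31.5 and 29.9 CPM in dark_14. CALD1 thus had a log2 difference of 0.99 ± 0.15 in irradiated cells (edgeR adjusted p = 0.00332) and of -0.51 ± 0.14 in dark cells (edgeR adjusted p = 0.0254). The difference between the changes was 1.504, from 1.09 to 1.92 (edgeR adjusted p = 0.00152). CALD1 was the only one of 22 contractile actin genes called in irradiated cells, where that list had 13 members above 0 and a median of 0.05, against 4 above 0 and -0.19 in dark cells.

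CDH2, N-cadherin, is an adhesion molecule of mesenchymal and neural cells (chr18:27950966-28177446, minus strand). It stood at 63.8 and 63.6 CPM in blue_42, against 41.0 and 41.5 CPM in blue_14. In the dark it stood at 46.2 and 43.0 CPM in dark_42, against 58.1 and 54.2 CPM in dark_14. The log2 difference of CDH2 was 0.63 ± 0.13 in irradiated cells (edgeR adjusted p = 0.0354) and -0.33 ± 0.12 in dark cells, where it was not called (edgeR adjusted p = 0.0961), and the difference between them was 0.95 (edgeR adjusted p = 0.0443). That difference between light and dark was not called under the replicate block, after thinning to equal depth or with only the 8 libraries at 14 and 42 sessions. The irradiated level had been higher at 3 sessions, at 80.3 and 84.7 CPM, so CDH2 at 42 sessions lay between its values at 3 and at 14. Its call was lost without any single irradiated library at 14 or 42 sessions and without either dark library at 3 sessions. Of 24 desmosome, cadherin and tight junction genes CDH2 alone was called, and 5 lay above 0 with a median of -0.13.

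BASP1, a membrane-associated protein that also acts as a transcriptional corepressor of WT1 (chr5:17065598-17276843, plus strand), was called higher in light and in dark. It stood at 124 and 140 CPM in blue_42, against 52.2 and 51.5 CPM in blue_14. Dark levels were 88.8 and 92.5 CPM in dark_42, against 53.2 and 50.6 CPM in dark_14. BASP1 rose by 1.34 ± 0.13 on the log2 scale in irradiated cells (edgeR adjusted p = 1.77e-05) and by 0.81 ± 0.13 in dark cells (edgeR adjusted p = 0.000633). The difference of 0.54 between the changes was not called (edgeR adjusted p = 0.451). At 3 sessions BASP1 stood at 29.1 and 37.3 CPM in irradiated cells, so its level was higher at each later stage.

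CALB1, the calcium-binding protein calbindin, and LAMB1, the beta-1 chain of laminins (chr7:107923799-108003255, minus strand), rose in irradiated cells and were not called in dark cells. CALB1 stood at 14.96 and 14.1 CPM in blue_42, against 4.02 and 5.24 CPM in blue_14, and at 8.18 and 10.0 CPM in dark_42, against 7.72 and 7.78 CPM in dark_14. LAMB1 stood at 106 and 124 CPM in blue_42, against 55.1 and 58.6 CPM in blue_14, and at 84.9 and 79.5 CPM in dark_42, against 64.1 and 75.4 CPM in dark_14. For neither gene did the irradiated pairs overlap. The log2 differences in irradiated cells were 1.68 ± 0.28 for CALB1 (edgeR adjusted p = 0.00654) and 1.02 ± 0.15 for LAMB1 (edgeR adjusted p = 0.00332). The change was larger in light than in dark by 1.46 for CALB1 (edgeR adjusted p = 0.187) and by 0.79 for LAMB1 (edgeR adjusted p = 0.218), and neither passed. LAMB1 was the only one of 22 hemidesmosome, laminin and integrin genes called, while 15 of that list lay below 0 in irradiated cells, with a median of -0.03. An exon of LAMB1 overlaps the opposite-strand gene DLD, and without a stated strand setting their counts cannot be told apart.

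ZNF618, a zinc finger protein, CCDC88A, which encodes the actin-binding protein girdin, and TFPI2, a secreted inhibitor of serine proteases, were called higher in light and in dark. ZNF618 stood at 57.2 and 51.8 CPM in blue_42, against 26.7 and 29.1 CPM in blue_14, a log2 difference of 0.98 ± 0.15 (edgeR adjusted p = 0.00396), beside 1.17 ± 0.14 in dark cells (edgeR adjusted p = 5.92e-05). CCDC88A stood at 68.3 and 69.7 CPM in blue_42, against 39.3 and 43.4 CPM in blue_14, a log2 difference of 0.75 ± 0.15 (edgeR adjusted p = 0.0264), beside 0.62 ± 0.13 in dark cells. TFPI2 stood at 66.0 and 62.1 CPM in blue_42, against 37.9 and 38.6 CPM in blue_14, a log2 difference of 0.74 ± 0.15 (edgeR adjusted p = 0.0365), beside 0.49 ± 0.14 in dark cells. In none of these genes did the irradiated pairs overlap, and for none was the difference from the dark change called. CCDC88A had stood at only 13.8 and 13.6 CPM in irradiated cells at 3 sessions. Without any single irradiated library at 14 or 42 sessions the calls of CCDC88A and TFPI2 were lost.

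CCND2, cyclin D2, which drives entry into the cell cycle through CDK4 and CDK6 (chr12:4273772-4305350, plus strand), stood at 183 and 202 CPM in blue_42, against 121 and 113 CPM in blue_14. In the dark it stood at 171 and 172 CPM in dark_42, against 145 and 129 CPM in dark_14. CCND2 rose by 0.71 ± 0.12 on the log2 scale in irradiated cells (edgeR adjusted p = 0.00822), and its dark difference of 0.32 ± 0.11 was not called (edgeR adjusted p = 0.0937). Among 35 G1/S and DNA replication genes none was called and 27 lay above 0, with a median of 0.11, and among 31 G2/M and mitosis genes none was called and 19 lay above 0, with a median of 0.12. In dark cells 24 of the G1/S genes lay above 0, with a median of 0.14 and none called. Of the G2/M genes 22 lay above 0 in dark cells, with a median of 0.18, 3 called higher and 2 lower. MKI67, the proliferation marker Ki-67, stood at 983 and 970 CPM in blue_42, against 883 and 729 CPM in blue_14, and was not called (log2 0.28 ± 0.14, edgeR adjusted p = 0.429). Its dark log2 difference was 0.24 ± 0.14, not called. The median over all tested genes was 0.00 in irradiated cells and 0.01 in dark cells.

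The eleventh higher gene, LCP1, lay below 10 CPM and is named because the count of calls was small. LCP1 encodes plastin-2, an actin-bundling protein typical of leukocytes. It had 46 and 45 counts in blue_42 a and b, against 3 and 2 counts in blue_14 a and b, a ratio of 6.36 after scaling for library totals with an exact 95% interval of 2.63 to 20 that covers counting error only. The LCP1 log2 difference was 2.64 ± 0.49 (edgeR adjusted p = 0.0187) and its dark difference 0.06 ± 0.51. Without any single irradiated library at 14 or 42 sessions its call was lost. The 12 leukocyte markers, LCP1 included, summed to 9.71 and 11.97 CPM in blue_42 and 5.40 and 6.75 CPM in blue_14, and 2 of the 3 tested lay above 0 with a median of 1.12. CD68, a lysosomal protein of macrophages, had 14 and 24 counts in blue_42, against 3 and 3 counts in blue_14. After scaling for library totals these were 1.79 and 2.93 CPM against 0.853 and 1.45 CPM. In the dark CD68 stood at 2.22 and 2.89 CPM in dark_42, against 3.09 and 1.38 CPM in dark_14. CD14 had 13 and 29 counts in blue_42, against 8 and 7 counts in blue_14. Scaled, CD14 stood at 1.66 and 3.54 CPM against 2.27 and 3.38 CPM, and these pairs overlapped. PTPRC, the pan-leukocyte antigen CD45, had 0 counts in blue_42 and 1 in blue_14, and CD3E had 0 counts in blue_42 and 2 in blue_14. The part of such transcripts in the rise of LCP1 was not tested.

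**Figure D2:**
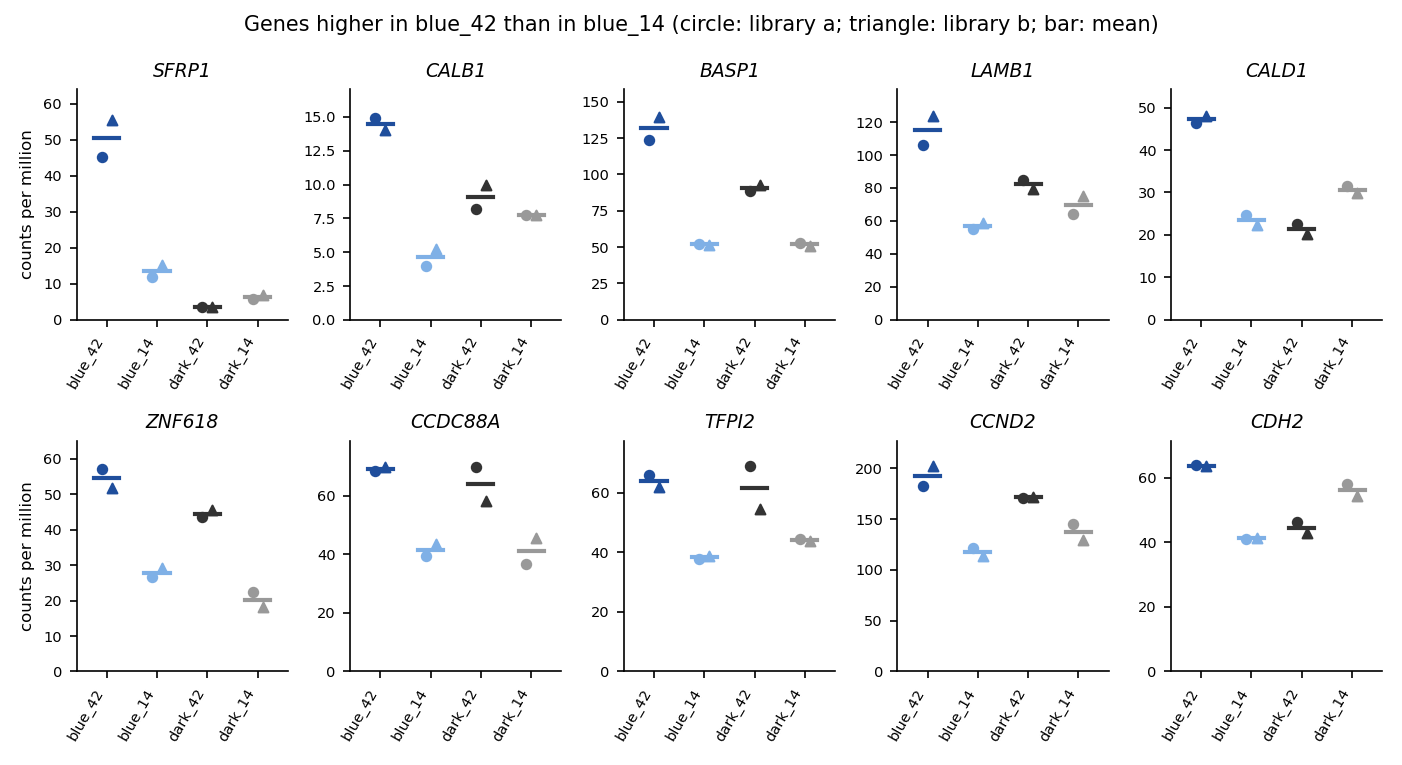
CPM of the 10 genes called higher in blue_42 at 10 CPM or more, with a circle for library a, a triangle for library b and a bar for the mean of each pair; axes start at 0. The blue_42 pair lies above the blue_14 pair in every panel, while in the SFRP1, CALD1 and CDH2 panels the dark_42 pair lies below the dark_14 pair.

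SPON2, the extracellular matrix protein spondin-2 (chr4:1166932-1208962, minus strand), had the largest fall among called genes above 10 CPM. It stood at 13.2 and 13.2 CPM in blue_42, against 32.4 and 46.2 CPM in blue_14. In the dark it stood at 9.46 and 8.96 CPM in dark_42, against 48.3 and 34.7 CPM in dark_14. Both 42-session pairs lay below both 14-session pairs. SPON2 fell by 1.54 on the log2 scale in irradiated cells (SE 0.20, edgeR adjusted p = 0.000805) and by 2.13 in dark cells (SE 0.19, edgeR adjusted p = 6.67e-06), and the difference of 0.59 between these changes did not pass (edgeR adjusted p = 0.608).

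IVL encodes involucrin, the early scaffold of the cornified envelope (chr1:152908545-152911886, plus strand). IVL stood at 76.2 and 77.8 CPM in blue_42, against 144 and 177 CPM in blue_14. Dark levels were 68.7 and 86.1 CPM in dark_42, against 224 and 164 CPM in dark_14. The pairs were apart in light and in dark, and the log2 difference of IVL was -1.05 ± 0.15 in irradiated cells (edgeR adjusted p = 0.00358) and -1.32 ± 0.15 in dark cells (edgeR adjusted p = 4.97e-05). Of 18 tested cornified envelope and barrier genes only IVL was called in irradiated cells, where 12 lay below 0 with a median of -0.16. In dark cells 4 were called lower and the median was -0.40. A further pair of members, not called in irradiated cells and chosen after their values were seen, is given as values only. TGM1, the transglutaminase that cross-links the envelope, stood at 6.96 and 6.79 CPM in blue_42, against 12.3 and 19.1 CPM in blue_14. SPRR1B, a small proline-rich envelope protein, stood at 2.58 and 4.73 CPM, against 7.75 and 12.9 CPM. Their dark log2 differences were -0.63 for TGM1, not called, and -1.29 for SPRR1B, called lower. In irradiated cells 6 members of the list lay above 0, among them SPRR2A at 0.60 and FLG at 0.35, neither called.

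The 250 bases of IVL upstream of its RefSeq start (GRCh38.p14, chr1:152908296-152908545, plus strand) are printed because IVL was the only envelope gene called, with TATAAA and TGANTCA, the motif of AP-1 factors, in capitals, both searched on both strands.

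IVL: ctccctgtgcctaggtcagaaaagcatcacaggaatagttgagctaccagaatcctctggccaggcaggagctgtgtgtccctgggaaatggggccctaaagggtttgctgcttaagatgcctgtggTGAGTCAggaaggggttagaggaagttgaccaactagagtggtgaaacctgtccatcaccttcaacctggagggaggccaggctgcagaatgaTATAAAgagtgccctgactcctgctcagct

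The AP-1 match lay 123 to 117 bases before the start and the TATAAA match 30 to 25 bases before it. Among 27305 RefSeq promoters of this length 6.74% held TGANTCA and 11.3% held TATAAA. Of the 31 called genes 22 had a promoter among them, and 5 of the 22 held TGANTCA and 6 held TATAAA. The 27305 promoters were not limited to tested genes, and enrichment was not tested.

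The histone genes H2AC6 and H2BC5, which encode an H2A and an H2B, were called lower in irradiated cells and were not called in dark cells. They start 34 kb apart in the histone cluster of chromosome 6 (H2AC6 at chr6:26124145-26139116 and H2BC5 at chr6:26158146-26171349, both plus strand). Most replication-dependent histone messages lack a poly(A) tail, and the tag libraries were primed on poly(A), so these counts reflect polyadenylated forms. H2AC6 stood at 11.2 and 9.09 CPM in blue_42, against 21.8 and 27.7 CPM in blue_14, and at 17.3 and 13.1 CPM in dark_42, against 16.01 and 16.1 CPM in dark_14. H2BC5 stood at 14.4 and 12.7 CPM in blue_42, against 26.4 and 28.6 CPM in blue_14, and at 14.8 and 19.9 CPM in dark_42, against 17.4 and 17.6 CPM in dark_14. In both genes the blue_14 libraries were the highest of all 8, and the dark pairs overlapped. The log2 differences in irradiated cells were -1.26 ± 0.22 for H2AC6 (edgeR adjusted p = 0.00881) and -1.01 ± 0.19 for H2BC5 (edgeR adjusted p = 0.022), beside -0.08 ± 0.20 and -0.02 ± 0.18 in dark cells. The difference from the dark change was not called for H2AC6 (edgeR adjusted p = 0.177) or for H2BC5 (edgeR adjusted p = 0.236). At 3 sessions H2AC6 stood at 15.9 and 11.8 CPM and H2BC5 at 16.4 and 13.9 CPM in irradiated cells, so both genes were highest at 14 sessions.

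The upstream sequences of these histone genes (GRCh38.p14, plus strand, H2AC6 at chr6:26123922-26124171 and H2BC5 at chr6:26157871-26158120) are shown because both genes were called lower and lie in one cluster. Capitals mark TATAAA, the CCAAT motif and the octamer ATGCAAAT or their reverse complements, searched on both strands. No match overlapped another.

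H2AC6: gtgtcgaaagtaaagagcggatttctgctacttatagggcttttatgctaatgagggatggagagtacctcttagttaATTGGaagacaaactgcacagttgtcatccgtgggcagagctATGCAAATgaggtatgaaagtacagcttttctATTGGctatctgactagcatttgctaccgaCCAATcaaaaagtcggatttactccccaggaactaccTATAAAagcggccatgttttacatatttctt

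H2BC5: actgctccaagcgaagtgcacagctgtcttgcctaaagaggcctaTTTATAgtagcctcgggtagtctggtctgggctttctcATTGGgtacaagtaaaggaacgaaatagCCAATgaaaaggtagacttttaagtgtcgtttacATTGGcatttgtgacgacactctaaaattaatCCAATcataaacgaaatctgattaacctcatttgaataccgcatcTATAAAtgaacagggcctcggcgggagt

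Each sequence held TATAAA close to the start, at 31 to 26 bases before it in H2AC6 and 28 to 23 in H2BC5. H2AC6 held 3 CCAAT matches and 1 octamer, and H2BC5 held 4 CCAAT matches. CCAAT occurred in 32.9% of the 27305 promoters and the octamer in 1.68%. Of the 22 called genes with a promoter 9 held CCAAT and 1 held the octamer. No other histone gene was called. H1-4, named because it starts between H2AC6 and H2BC5, had a log2 difference of -0.06 ± 0.28 (edgeR adjusted p = 0.961). H2BC21, another H2B gene named after its values were seen, had a log2 difference of -1.03 ± 0.30 (edgeR adjusted p = 0.152). Of 20 histone genes with a mean of at least 10 CPM in the higher of the compared groups, a list formed after values were seen, 12 lay below 0, 2 were called and the median was -0.10. Histone genes have near-identical copies, between which the counting could have split reads, so values of single histone genes are uncertain.

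Secreted and matrix-related genes stood among the falls. MMP13, a collagenase (chr11:102942995-102955734, minus strand), stood at 13.8 and 14.3 CPM in blue_42, against 24.7 and 41.5 CPM in blue_14, a log2 difference of -1.18 ± 0.22 (edgeR adjusted p = 0.0177), beside -0.99 ± 0.21 in dark cells. It ranged from -1.55 without blue_14 a to -0.80 without blue_14 b, and its call was lost without blue_14 b or either blue_42 library. MXRA5, a matrix-remodelling-associated protein, stood at 53.4 and 56.5 CPM in blue_42, against 85.8 and 112 CPM in blue_14 (log2 -0.83 ± 0.13, edgeR adjusted p = 0.00415). PCSK5, a proprotein convertase, stood at 33.1 and 25.5 CPM in blue_42, against 53.4 and 48.2 CPM in blue_14 (log2 -0.80 ± 0.17, edgeR adjusted p = 0.0451). MMP13 was called lower in the dark as well, and MXRA5 and PCSK5 were not. Of 20 tested metalloproteinase and plasminogen genes MMP13 alone was called, and 9 lay above 0 with a median of -0.02. MMP1, the interstitial collagenase, stood at 3.74 and 5.09 CPM in blue_42, against 2.87 and 6.20 CPM in blue_14, and the pairs overlapped.

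Further falls came in genes of varied function. TUFT1, which encodes tuftelin, stood at 46.5 and 47.0 CPM in blue_42, against 71.7 and 99.2 CPM in blue_14 (log2 -0.85 ± 0.14, edgeR adjusted p = 0.00881), and was called lower in the dark too, where the log2 difference was -1.44 ± 0.14 (edgeR adjusted p = 7.8e-06). NEBL, the actin-binding nebulette, stood at 13.8 and 13.8 CPM in blue_42, against 27.8 and 29.1 CPM in blue_14 (log2 -1.04 ± 0.19, edgeR adjusted p = 0.0187), beside -0.30 ± 0.17 in dark cells. PLAAT4, a phospholipase and acyltransferase induced by retinoids, stood at 39.6 and 39.8 CPM in blue_42, against 63.4 and 83.0 CPM in blue_14 (log2 -0.86 ± 0.14, edgeR adjusted p = 0.00547), beside -0.58 ± 0.13 in dark cells (edgeR adjusted p = 0.00788). In these genes the blue_42 libraries were nearly equal, and the wider gap was that between the blue_14 libraries for TUFT1 and PLAAT4. FAM83A, an adaptor of growth factor signalling, stood at 131 and 137 CPM in blue_42, against 224 and 230 CPM in blue_14 (log2 -0.76 ± 0.13, edgeR adjusted p = 0.00881), beside -0.30 ± 0.13 in dark cells. TP53I11, a p53-inducible gene, had a log2 difference of -1.04 ± 0.21 in irradiated cells and -0.82 ± 0.18 in dark cells. Differences of -0.79 ± 0.14 for MPPED2, a metallophosphoesterase, and -0.76 ± 0.16 for CKB, the brain-type creatine kinase, stood beside -0.70 ± 0.13 and -0.50 ± 0.14 in dark cells, where both were called.

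Further lower genes fell outside the 15 largest and are named because the count of calls was small. DAB2IP, a Ras GTPase-activating protein, had a log2 difference of -0.67 ± 0.12 (edgeR adjusted p = 0.0159), HRH1, the histamine H1 receptor, of -0.71 ± 0.15 (edgeR adjusted p = 0.0451) and MRFAP1L1 of -0.57 ± 0.12 (edgeR adjusted p = 0.0439). DAB2IP and MRFAP1L1 were also called lower in dark_42, and HRH1 was not. SYT1, the calcium sensor of synaptic vesicles, lay below 10 CPM, with 19 and 17 counts in blue_42, against 27 and 17 counts in blue_14, or 2.45 and 2.06 CPM against 7.75 and 8.11 CPM. Its log2 difference was -1.80 ± 0.37 (edgeR adjusted p = 0.0439), beside -2.64 ± 0.28 in dark cells (edgeR adjusted p = 1.06e-05). SYT1 belongs to a list of 20 neuronal markers, which summed to 138 and 123 CPM in blue_42 and 173 and 153 CPM in blue_14, and of 16 tested members 12 lay below 0 with a median of -1.005. In dark cells 11 of the 16 were called lower and the median was -2.46. The neuronal sums there were 145.2 and 110.3 CPM in dark_42 and 232.5 and 235.5 CPM in dark_14. Haemoglobins and other erythroid genes summed to 1.92 and 1.47 CPM in blue_42 and 8.25 and 9.65 CPM in blue_14. In the dark they summed to 1.70 and 1.38 CPM in dark_42 and 5.05 and 43.4 CPM in dark_14. The part of such transcripts in the fall of SYT1 or in the lower calls of dark cells was not tested.

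**Figure D3:**
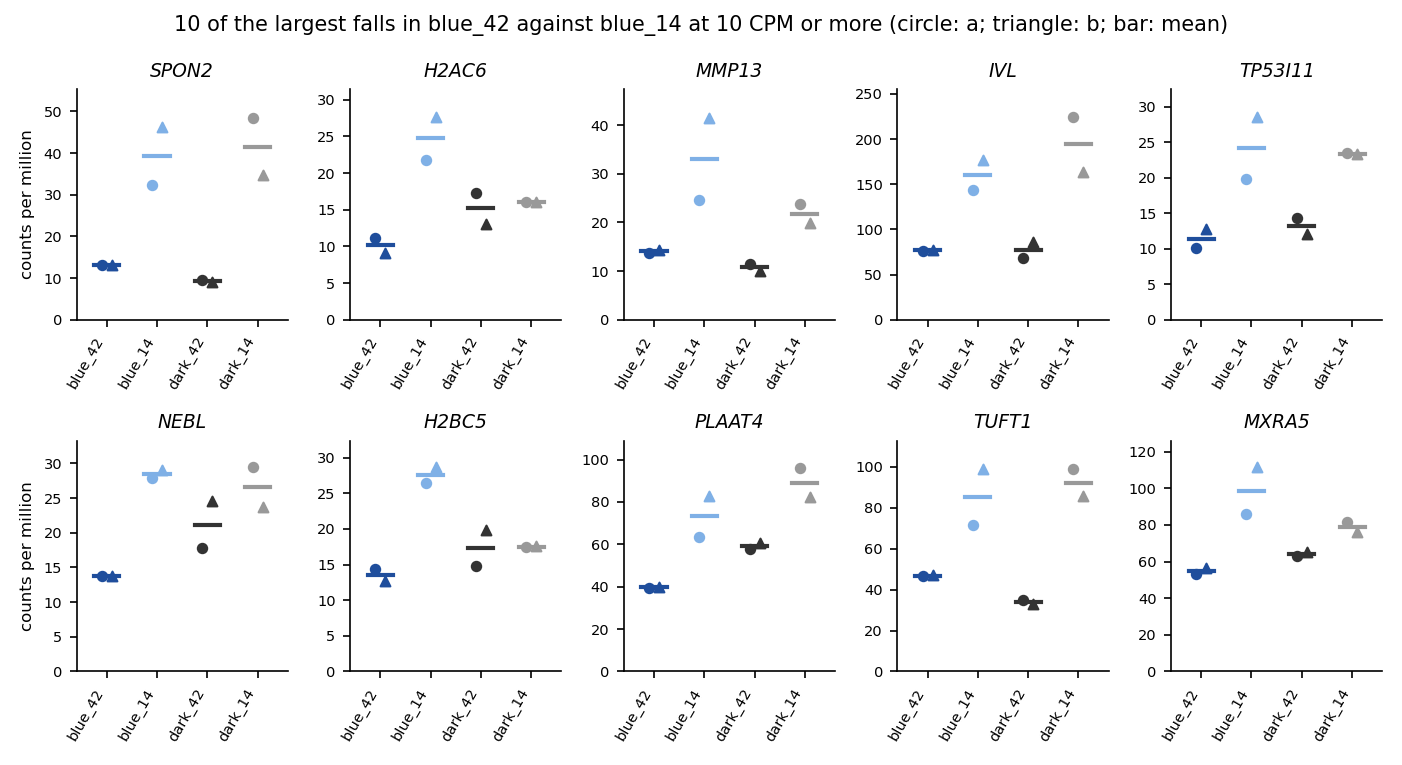
CPM of 10 of the largest falls in blue_42 against blue_14 at 10 CPM or more, with a circle for library a, a triangle for library b and a bar for the mean of each pair; axes start at 0. The blue_42 pair lies below the blue_14 pair in every panel, and in the H2AC6 and H2BC5 panels the dark_42 and dark_14 pairs overlap.

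The test of the difference between the irradiated and the dark change called 7 genes, or 0.0544%, of which 6 (0.0466%) were more positive in irradiated cells and 1 (0.00777%) more negative, and 1035 had an unadjusted p under 0.05. SFRP1, CALD1 and CDH2 are described above. OLFM4, a secreted olfactomedin glycoprotein, stood at 36.9 and 39.3 CPM in blue_42, against 22.7 and 29.1 CPM in blue_14, and at 13.6 and 11.2 CPM in dark_42, against 27.5 and 22.2 CPM in dark_14. Its log2 difference of 0.59 ± 0.17 in irradiated cells was not called (edgeR adjusted p = 0.15), that of -0.97 ± 0.17 in dark cells was (edgeR adjusted p = 0.00149), and the changes differed by 1.56 (edgeR adjusted p = 0.00828). The OLFM4 levels of light and dark overlapped at 14 sessions and were apart at 42. The OLFM4 difference was not called after thinning to equal depth or with only the 8 libraries at 14 and 42 sessions.

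For MED24, a subunit of the Mediator complex, the dark_42 libraries were the lowest of all 8, and the log2 difference of -0.16 ± 0.14 in irradiated cells was not called. MED24 stood at 95.02 and 86.1 CPM in blue_42, against 110 and 91.1 CPM in blue_14, and at 51.7 and 39.7 CPM in dark_42, against 106 and 120 CPM in dark_14. The changes differed by 1.15 for MED24 (edgeR adjusted p = 0.0218), a call lost with only the 8 libraries at 14 and 42 sessions. VAV3, a guanine nucleotide exchange factor, was the gene with the more negative change in light. VAV3 stood at 30.7 and 31.6 CPM in blue_42, against 46.2 and 48.6 CPM in blue_14, and at 38.7 and 44.0 CPM in dark_42, against 31.2 and 31.0 CPM in dark_14. Neither VAV3 change was called alone, at log2 -0.60 ± 0.14 in irradiated cells (edgeR adjusted p = 0.0649) and 0.41 ± 0.13 in dark cells (edgeR adjusted p = 0.0581), but they differed by -1.01 (edgeR adjusted p = 0.0491). The VAV3 difference was not called under the replicate block, with non-robust estimation or with only the 8 libraries at 14 and 42 sessions, and it stayed called in 2 of 12 fits that left out 1 library, those without blue_14 a and without dark_42 a. The differences were called in 12 of these 12 fits for SFRP1 and CALD1, in 10 for OLFM4, in 5 for MED24 and in 2 for CDH2, and that of SFRP1 was not called after thinning to equal depth.

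**Figure D4:**
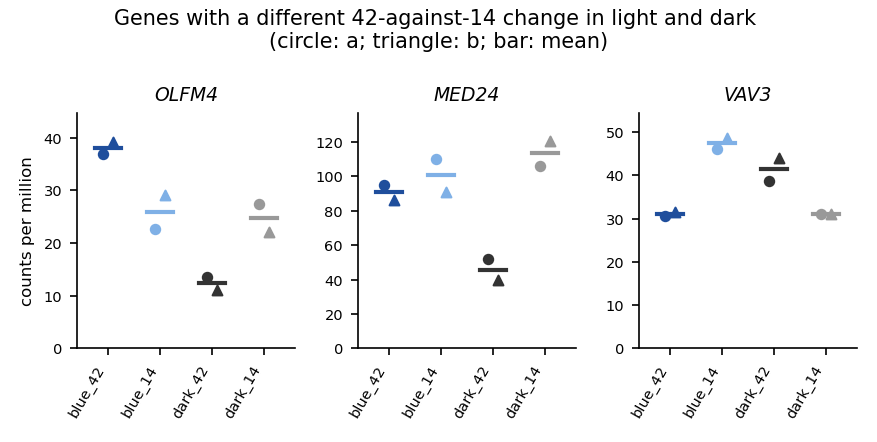
CPM of OLFM4, MED24 and VAV3, called for a difference between the irradiated and the dark change but not for the irradiated change itself; circles are library a, triangles library b and bars the mean of each pair, and axes start at 0. The dark_42 pair is the lowest for OLFM4 and MED24, and the blue_14 pair is the highest for VAV3.

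Immediate early genes are transcription factors and feedback regulators switched on within minutes of a stimulus. None of the 20 tested was called in irradiated cells, where 0.241% of all genes were. Still, 19 of the 20 lay below 0, with a median log2 difference of -0.46. An edgeR unadjusted p under 0.05 was reached by 12 of the 20, and by 1608 of all 12878 tested genes. The mean level over the list, on the log2 scale relative to the blue_14 mean, was -0.79 and -0.42 in blue_42 a and b and -0.19 and 0.19 in blue_14 a and b. The irradiated pairs did not overlap, but the nearest libraries of the pairs were closer to each other than the libraries within a pair. On the same scale the list stood at -0.307 and -0.443 in blue_3 and at -0.501 and -0.729 in dark_3. It stood at -0.275 and -0.629 in dark_14 and at -0.517 and -0.367 in dark_42. Both blue_14 libraries thus lay above every other library. In dark cells the median was 0.08 and 12 of the 20 lay above 0. JUNB, an AP-1 subunit, stood at 167 and 208 CPM in blue_42, against 281 and 367 CPM in blue_14 (log2 -0.78 ± 0.18, edgeR adjusted p = 0.0982), and was called lower in dark cells at -0.68 (edgeR adjusted p = 0.037). EGR1, a zinc finger factor of the early response, stood at 101 and 143 CPM in blue_42, against 206 and 269 CPM in blue_14 (log2 -0.95 ± 0.24, edgeR adjusted p = 0.151), beside 0.51 in dark cells. JUNB and EGR1 were chosen for their small p-values.

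Most genes on the lists of epidermal transcription factors, keratinocyte markers and keratins lay below 0 in irradiated cells. Of 22 epidermal transcription factors 18 lay below 0, with a median of -0.29 in irradiated and -0.26 in dark cells, and none was called in irradiated cells. KLF4, a factor of barrier formation picked after its values were seen, stood at 15.6 and 17.5 CPM in blue_42, against 24.1 and 34.3 CPM in blue_14 (log2 -0.78 ± 0.18, edgeR adjusted p = 0.0677), beside 0.31 in dark cells. All 11 keratinocyte markers lay below 0, with a median of -0.34, and none was called. In dark cells 8 of the 11 lay below 0, with a median of -0.22, and 1 was called lower. Of 16 keratins 11 lay below 0, with a median of -0.27 and none called, while in dark cells the median was -0.37 and 3 were called lower and 1 higher. The basal keratin KRT5 stood at 1021 and 723 CPM in blue_42, against 1473 and 951 CPM in blue_14, and these pairs overlapped. Of the keratins of differentiating cells, KRT10 stood at 133 and 119 CPM in blue_42, against 143 and 227 CPM in blue_14, and KRT1 at 14.7 and 31.0 CPM, against 65.4 and 81.1 CPM. Neither gene's pairs overlapped, but the blue_14 libraries lay far apart for KRT10 and the blue_42 libraries for KRT1, and the edgeR adjusted p was 0.29 for KRT10 and 0.396 for KRT1. Dark log2 differences were -0.80 for KRT5, -0.41 for KRT10 and -1.76 for KRT1, none of them called.

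No gene of the immune and defence lists was called in irradiated cells, where 0.241% of all genes were. Interferon-stimulated genes had 14 of 44 members above 0 in irradiated cells, with a median of -0.11, and 36 of 44 above 0 in dark cells, with a median of 0.30, 6 called higher and 1 lower. MHC class I presentation genes had 2 of 14 above 0 in irradiated cells, with a median of -0.21. Secreted defence and acute-phase genes had the highest median of the lists with at least 10 tested genes, 0.42, with 10 of 14 above 0, and -0.12 in dark cells. Relative to the blue_14 mean, the list's mean log2 level was 0.127 and 0.607 in blue_42 and -0.19 and 0.19 in blue_14. It was -0.316 and 0.235 in dark_42 and 0.435 and -0.117 in dark_14, so the pairs overlapped in light and in dark. On that list PI3, the elastase inhibitor elafin, stood at 74.0 and 110 CPM in blue_42, against 20.1 and 36.2 CPM in blue_14 (log2 1.78 ± 0.40, edgeR adjusted p = 0.152). SAA1, an acute-phase protein with a near-identical copy, stood at 200 and 325 CPM in blue_42, against 123 and 132 CPM in blue_14 (log2 1.05 ± 0.31, edgeR adjusted p = 0.231). For both the irradiated pairs were apart, and both were named after their values were seen. IL1B, the cytokine interleukin-1 beta, stood at 49.9 and 59.0 CPM in blue_42, against 38.2 and 40.0 CPM in blue_14, with a log2 difference of 0.48 in irradiated and in dark cells, called in dark cells alone (edgeR adjusted p = 0.0395 in dark and 0.172 in irradiated cells). CXCL8, the neutrophil chemokine interleukin-8, stood at 6.19 and 10.4 CPM in blue_42, against 4.88 and 8.58 CPM in blue_14.

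No gene of the stress and mitochondrial lists was called in irradiated cells, where 0.241% of all genes were. Of 15 mitochondrially encoded transcripts 6 lay above 0 in irradiated cells and the median was -0.02, whereas in dark cells all 15 lay below 0, 7 were called lower and the median was -0.50. For none of the 15 did the test of the difference between these changes pass. NRF2 targets and antioxidant enzymes had 16 of 35 above 0 and a median of -0.03, p53 targets 12 of 24 and 0.00, and heat shock proteins 9 of 18 and 0.08. HMOX1, haem oxygenase 1, had 15 and 20 counts in blue_42, against 10 and 8 counts in blue_14, a ratio of 0.679 after scaling for library totals with an exact 95% interval of 0.374 to 1.27 that covers counting error only, and was not called (log2 -0.57 ± 0.49, edgeR adjusted p = 0.68). CDKN1A, the CDK inhibitor p21, stood at 61.5 and 76.6 CPM in blue_42, against 82.1 and 111 CPM in blue_14 (log2 -0.46 ± 0.16, edgeR adjusted p = 0.248). The dark CDKN1A difference was alike, at -0.45 ± 0.16, and was not called either. OPN3, an opsin, stood at 40.5 and 39.0 CPM in blue_42, against 58.0 and 59.1 CPM in blue_14, with pairs apart and a log2 difference of -0.56 ± 0.13 that narrowly missed the threshold (edgeR adjusted p = 0.0778). OPN3 was called lower in dark cells, at -0.87 ± 0.13 (edgeR adjusted p = 0.000344). B3GALT5, a glycan galactosyltransferase, stood at 1.81 and 1.70 CPM in blue_42, against 3.44 and 1.91 CPM in blue_14, on 14 counts in each blue_42 library, and was not called (edgeR adjusted p = 0.549), while dark_42 held 12.9 and 13.4 CPM and dark_14 11.4 and 7.53 CPM.

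**Figure D5:**
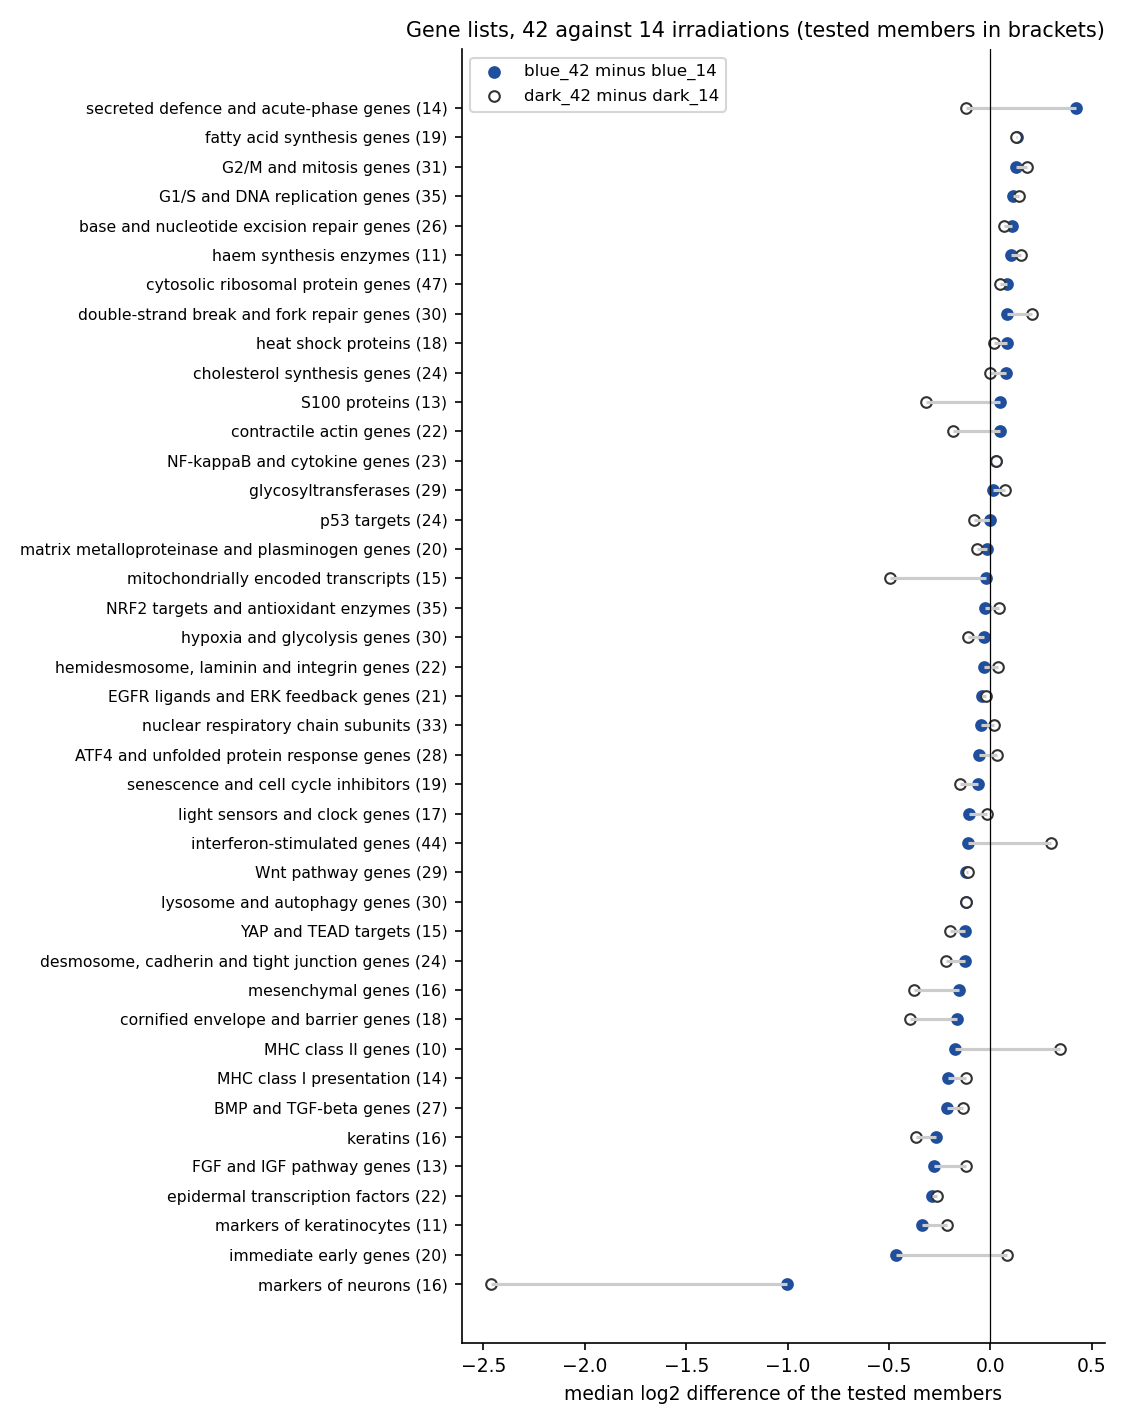
Median log2 difference of the tested members of each list with at least 10 tested genes, with a filled point for irradiated cells (blue_42 minus blue_14), an open point for dark cells (dark_42 minus dark_14) and the number of tested genes in brackets. Immediate early genes lie at -0.46 in irradiated and 0.08 in dark cells, mitochondrially encoded transcripts at -0.02 and -0.50, and secreted defence genes at 0.42 and -0.12. For the secreted defence list the library pairs overlapped in light and in dark.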

How the data were processed

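Libraries were made from total RNA with a 3′ tag kit, per the labels' protocols, which yields about 1 tag per transcript end. The deposited table holds raw read counts per gene, made by the authors with STAR and featureCounts on GRCh38, per the submitters' processing notes; versions, strand setting and the use of molecular identifiers are not stated in any source used here. Of 45372 genes, 22754 had a count and 12878 passed edgeR's filterByExpr at a minimum count of 10. Counts were scaled by TMM and fitted with edgeR 4.0.16 (R 4.3.3) in one robust quasi-likelihood model of all 12 libraries with 6 group means, which left 6 residual degrees of freedom. P-values from two-sided tests received Benjamini-Hochberg adjustment across the 12878 genes, and adjusted p under 0.05 made a call. Printed CPM use TMM-scaled totals, except marker sums, which use plain totals, and SE was derived from the test statistic. With 2 libraries per group, and nothing saying that letters a and b are separate cultures, the p-values only reflect how these libraries varied, and that variation may be technical.

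The text names up to 15 called genes in each direction, ranked by change, at 10 CPM or more in the higher group. For these both blue_42 libraries also had to lie beyond both blue_14 libraries, which held for all 31 called genes. Such separation is therefore no added evidence for the named genes. Also named are the genes called for the difference from the dark change and 15 genes whatever their values. Others are marked where they appear. Some genes that met this rule are not reported here, while all counts include them. Lists were described by counts and medians, without a test. Members and lists were chosen with earlier results of these data known. Positions came from GENCODE 29 on GRCh38 and upstream sequences from RefSeq (GRCh38.p14). Exons of 11 of the 35 genes called for a change or a difference overlap a gene on the other strand, and 3 overlap one on the same strand, which makes their counts uncertain. Alternatives were RLE scaling, DESeq2 1.42.0, no filter, filtering at 5 CPM, a block on the replicate letter, only the 8 libraries at 14 and 42 sessions, thinning to 2073160 counts, non-robust estimation and leaving out each library. The scripts were tested on simulated counts.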

Additional observations from a re-analysis of the deposited data

Results flagged for a closer look

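Each of the following genes changed differently in irradiated and in dark cells by the test of that difference over all 12878 genes (edgeR). SFRP1 differed by 2.80 on the log2 scale between the irradiated and the dark change. OLFM4 differed by 1.56. CALD1 differed by 1.504. MED24 differed by 1.15, with the dark_42 libraries the lowest. CDH2 differed by 0.95 and was not called under the replicate block. VAV3 differed by -1.01, the one with the more negative change in light, and was not called under the replicate block, non-robust estimation or the fit of 8 libraries. Among these genes only SFRP1 and CALD1 stayed called for the difference in the fit of 8 libraries. Thinned to equal depth, SFRP1, OLFM4 and CDH2 were not called for it.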

How the results depend on the processing

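The calls rest on 2 libraries per group, of which blue_14 b was the smallest, so a change missed here is not shown to be absent. RLE scaling left the counts of calls in irradiated cells as they were, and all 31 genes stayed called. DESeq2 called 15 higher and 46 lower in irradiated cells, 114 higher in dark cells, and 22 more positive and 3 more negative differences. Without a filter these were 131, 167, 417, 64 and 16. With only the 8 libraries at 14 and 42 sessions they were 7, 8, 107, 2 and 0. Thinned to equal depth, dark cells had 84 higher and 339 lower calls, and 16 of the 31 genes kept their call. The replicate block changed the counts to 10 higher and 17 lower in irradiated cells, and 26 of the 31 genes kept their call. No more negative difference was called under it (0). The deviations of same-lettered libraries correlated at 0.28 between blue_42 and blue_14 and 0.41 between blue_42 and dark_42. They correlated at -0.37 between blue_42 and dark_14 and -0.44 between dark_42 and dark_14. The signs were mixed, so the letters were not taken to pair samples, and the source of these correlations was not tested. Non-robust estimation also gave 0 more negative differences. Leaving out 1 library, the counts ran from 4 to 132 higher and 2 to 121 lower in irradiated cells, 33 to 352 higher and 251 to 795 lower in dark cells, and 2 to 47 more positive and 0 to 6 more negative differences. The highest counts in irradiated cells came without blue_14 a, and the lowest without blue_42 a (higher) and without blue_14 b (lower). Among genes not called, MMP1 turned to -0.0899 when thinned, -0.48 without blue_14 a and -0.15 without blue_42 b, against 0.63 without blue_14 b, and CXCL8 turned to -0.03365 without blue_14 a and -0.03 without blue_42 b, against 0.78 without blue_14 b; no called gene changed sign, and the cause was not tested.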
